A study of Rattus norvegicus with 22 samples.

Results

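The 8 genes described here, Hmgcs1, Sqle, Cyp51, Idi1, Fdps, Fdft1, Lss and Insig1, belong to cholesterol synthesis. They were chosen by name, as the non-control probes whose gene name was one of the 8, and 9 of the 30367 non-control probes of the array reported them (Fdps had 2), out of 26276 gene names. Liver RNA came from 22 male Sprague-Dawley rats. All rats were 8 weeks old at the start and ate a semi-synthetic diet. CD 3 (n = 5) and CD 14 (n = 6) were fed the control diet for 3 and 14 months. BD 3 (n = 5) and BD 14 (n = 6) were fed the BASE-diet for the same times, in which 6% salmon fat took the place of lard, and 8% hydrolysed linden flower extract, 8% pumpkin puree and 1% probiotic bacteria were added. Each rat had its own two-colour array. A common reference, liver RNA of untreated rats 10 weeks old, was the other channel, so that every value below is the log2 ratio of a rat to that reference. The direction follows the labels, which put the rat in the Cy5 channel and the reference in Cy3 on every array, while the methods describe a common reference but give Cy3 to control rats and Cy5 to BASE-diet rats. The groups at 14 months therefore differed from those at 3 months in the age of the animals as well as in the length of feeding. Whole liver was used, and a change in RNA per cell and a change in the share of a cell type cannot be told apart.

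Cholesterol is built from acetyl-CoA through the mevalonate pathway. Hmgcs1 makes HMG-CoA, an early intermediate of it. Idi1 and Fdps build the isoprenoid chain, Fdft1 joins it to squalene, and Sqle and Lss turn squalene into lanosterol, the first sterol, from which Cyp51 removes a methyl group. Insig1 is the sterol-sensing protein that holds the transcription factor SREBP-2 in the endoplasmic reticulum while sterols are plentiful, and it is itself a target of SREBP. In liver these genes are known to rise together when the cell is short of sterols. None of the 8 takes up cholesterol, and genes of sterol sensing and uptake were followed as a separate list.

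The regulatory letters near the gene starts are shown first, for Cyp51 and Idi1, both of which had an unadjusted p under 0.05 in CD 14 against CD 3, for Insig1, which had the widest range, and for Hmgcs1, the only one of the 8 with a lower mean in CD 14 than in CD 3. They are the 250 bases before the RefSeq start (build GRCr8), 5′ to 3′ on the gene's strand. Capitals mark the NF-Y box CCAAT and the Sp1 box GGGCGG on either strand. Hmgcs1 lies at chr2:53382054-53382303 (plus strand), Cyp51 at chr4:30991443-30991692 (plus), Idi1 at chr17:66547525-66547774 (minus) and Insig1 at chr4:8057770-8058019 (minus).
Hmgcs1: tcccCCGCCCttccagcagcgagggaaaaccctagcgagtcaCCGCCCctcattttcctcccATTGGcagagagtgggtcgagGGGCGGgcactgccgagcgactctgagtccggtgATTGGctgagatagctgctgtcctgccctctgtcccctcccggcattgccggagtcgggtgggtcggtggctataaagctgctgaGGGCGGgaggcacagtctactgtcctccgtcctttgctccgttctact
Cyp51: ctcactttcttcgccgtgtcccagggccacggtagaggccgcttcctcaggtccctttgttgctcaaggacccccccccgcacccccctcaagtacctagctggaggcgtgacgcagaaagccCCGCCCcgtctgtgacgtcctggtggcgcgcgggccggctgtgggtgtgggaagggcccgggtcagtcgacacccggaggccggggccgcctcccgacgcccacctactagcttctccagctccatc
Idi1: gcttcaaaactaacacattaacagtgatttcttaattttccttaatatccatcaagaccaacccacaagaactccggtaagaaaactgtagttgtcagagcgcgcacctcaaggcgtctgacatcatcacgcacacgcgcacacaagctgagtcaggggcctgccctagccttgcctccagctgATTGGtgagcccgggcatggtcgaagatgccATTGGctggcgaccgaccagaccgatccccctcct
Insig1: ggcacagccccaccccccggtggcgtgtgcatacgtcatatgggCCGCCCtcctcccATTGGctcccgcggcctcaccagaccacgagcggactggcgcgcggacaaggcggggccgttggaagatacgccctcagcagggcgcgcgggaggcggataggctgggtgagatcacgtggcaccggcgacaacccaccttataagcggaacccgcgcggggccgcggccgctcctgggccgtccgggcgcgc

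RefSeq gave such a window, 300 bases with the first 50 after the start, for 6 of the 8 genes. The NF-Y box was in 5 of the 6 windows and in 37.5% of all 33469 windows, and the Sp1 box was in 5 of the 6 and in 33.1% of all. Cyp51 held no CCAAT and Idi1 no GGGCGG. The letters TCACNCCAC of a sterol regulatory element, searched on both strands, were in 0 of the 6 and in 1.12% of all windows, which says only that these exact letters are not in these windows. The motifs do not overlap one another. Fdps and Lss each held both boxes.

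All 9 probes were well above background in both channels on all 22 arrays, and none was saturated. Hmgcs1 was among the brightest probes, at percentile 97.1 of the tested probes by its mean Cy5 signal, while Sqle was near the middle. Because probes differ in brightness for reasons other than RNA amount, levels were compared between rats for 1 probe and never between genes. The Fdps probes lie in the coding sequence and are shown because the gene had 2 of them. On build rn4, A_44_P432965 lies at chr2:181170192-181170336 and A_64_P147190 at chr2:181168650-181168691.
A_44_P432965: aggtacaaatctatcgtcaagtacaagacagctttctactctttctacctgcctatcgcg
A_64_P147190: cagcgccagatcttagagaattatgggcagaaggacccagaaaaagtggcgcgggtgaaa

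Facts of the whole series bear on every value. Between 52.4% and 93.6% of the non-control spots were well above background in Cy5 over the arrays. CD 3 rat 1 and CD 14 rat 1 had 4.44% and 4.05% of non-uniform spots, against at most 0.063% on each other array. The arrays lay on 5 slides. Slide A held BD 3 rats 3 to 5 with CD 14 rats 1 to 3, slide B CD 3 rat 1 with BD 3 rats 1 and 2, slide C all of BD 14 with CD 14 rats 4 and 5, slide D CD 3 rats 2 to 4, and slide E CD 3 rat 5 with CD 14 rat 6. The 6 hepatocyte markers (Alb, Ttr, Apoa1, Tf, Serpina1 and Tat) were above background on all 22 arrays, and of 3 pancreas markers on the array 0 passed the filter.

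By the median over the 8 genes, the difference between groups was largest along time on the control diet. This ranking did not hold for each gene, and single rats within a group also differed widely. In CD 14 against CD 3, 7 of the 8 genes had higher means (Hmgcs1 had a lower one), with a median difference of 0.91 on the log2 scale, against a median of 0.03 over all 19434 probes tested. With limma and Benjamini-Hochberg adjustment over all probes, however, 0 of the 8 passed an adjusted p of 0.05, as did 0% of all probes. At an unadjusted p under 0.05, 3 genes (Idi1, Sqle and Cyp51) had higher means in CD 14 by their brightest (main) probes, where 10.1% of all probes lay in either direction. Fdps met it with its second probe and not with its main probe.

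**Figure D1:**
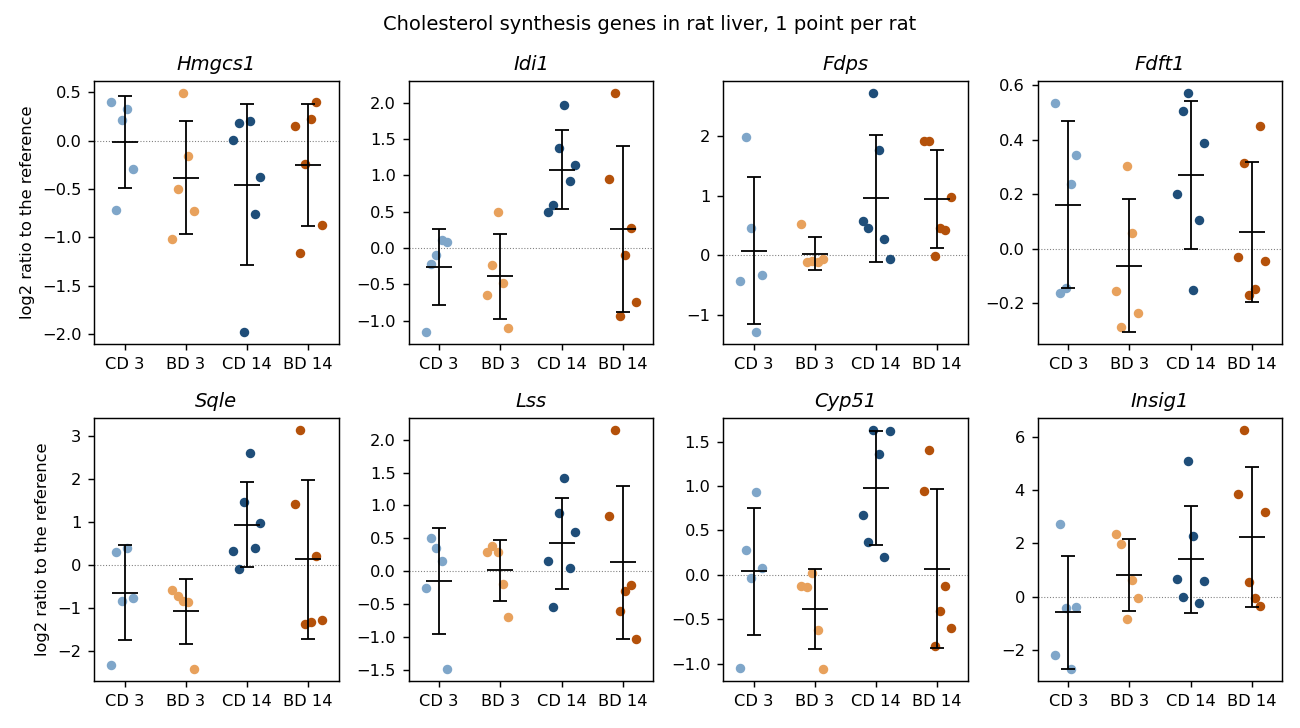
Log2 ratio to the common reference (vertical axis, a scale of its own for each gene) of the 8 genes by group, with 5 rats per group at 3 months and 6 per group at 14 months. Each point is a rat, and bars give the mean and SD; all 6 CD 14 rats lie above 0 for Idi1 and Cyp51, and BD 14 is spread widely.

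Idi1, which isomerises isopentenyl diphosphate, was the only one of the 8 whose control groups did not overlap. In CD 3 its log2 ratios were −1.16, −0.21, −0.10, 0.10 and 0.08 for rats 1 to 5, and in CD 14 they were 0.49, 0.59, 1.37, 1.97, 0.92 and 1.14 for rats 1 to 6. Each CD 14 rat was above each CD 3 rat, which held for 0.283% of the 18736 probes measured on every array, counted in the upward direction. The difference was 1.33 ± 0.44 (SE), 2.52-fold, with an adjusted p of 0.292 by limma. BD 3 ranged from −1.10 to 0.49, and BD 14 from −0.94 to 2.13 with a mean of 0.26 ± 1.14 (SD, n = 6).

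Cyp51, the lanosterol demethylase, also had its highest mean in CD 14. CD 3 gave −1.05, 0.28, −0.04, 0.93 and 0.08, and BD 3 gave −0.13, −0.14, 0.02, −0.62 and −1.06. CD 14 rats 1 to 6 gave 0.67, 0.36, 1.63, 1.36, 0.20 and 1.62. BD 14 rats 1 to 6 gave 0.95, 1.40, −0.80, −0.40, −0.13 and −0.60. Rats 1 and 2 of BD 14 thus lay within the range of CD 14, whereas rats 3 to 6 lay below each of its 6 rats. By group mean the order was CD 14 (0.97), BD 14 (0.07), CD 3 (0.04) and BD 3 (−0.38), and BD 14 and CD 3, like CD 3 and BD 3, differed by less than their SDs of 0.45 to 0.90. CD 14 was above CD 3 by 0.93 ± 0.41 (SE), with an adjusted p of 0.439 by limma.

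Sqle, squalene epoxidase, another control point of the pathway, had a wide range, from −2.42 in BD 3 rat 5 to 3.15 in BD 14 rat 2. CD 3 gave −2.34, 0.30, −0.84, 0.40 and −0.78, and all 5 BD 3 rats were below 0. In CD 14 the values were 0.32, −0.11, 1.47, 2.61, 0.39 and 0.97, and in BD 14 they were 1.43, 3.15, −1.38, −1.34, 0.22 and −1.27. BD 14 was divided between 2 high rats and 3 rats below each CD 14 rat. CD 14 exceeded CD 3 by 1.59 ± 0.72 (SE), 3.01-fold, with an adjusted p of 0.463 by limma. With the slide in the fit the difference of CD 14 and CD 3 was 2.64 for Sqle, 1.93 for Cyp51 and 1.46 for Idi1 (adjusted p from 0.768 to 0.826 by limma), and Sqle and Cyp51 but not Idi1 had an unadjusted p under 0.05 (6.01% of all probes). Without CD 3 rat 1 and CD 14 rat 1, the arrays with many non-uniform spots, only Idi1 (1.23) had such a p (11.6% of all probes), and Cyp51 differed by 0.72 and Sqle by 1.29. Slide E, the only slide with both control groups, held 1 rat of each, and there CD 14 rat 6 exceeded CD 3 rat 5 by 1.75, 1.54 and 1.05.

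Lss, lanosterol synthase, had its highest values of CD 14 in rats 3 and 4 and of BD 14 in rats 1 and 2, and its lowest value, −1.48, was in CD 3 rat 5. Its CD 14 mean was 0.43 ± 0.69 (SD, n = 6), its BD 14 mean 0.14 ± 1.16 (SD, n = 6), and BD 14 rat 2 had its highest value, 2.15. The difference of CD 14 and CD 3 was 0.57 ± 0.48 (SE), within the spread between rats (adjusted p = 0.737 by limma). It was 1.54 with the slide in the fit (adjusted p = 0.823 by limma) and between 0.24 and 0.77 without 1 rat.

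Fdps, farnesyl diphosphate synthase, had higher means at 14 months on both diets. Its main probe had means of 0.08 ± 1.23 in CD 3 and 0.03 ± 0.28 in BD 3 (SD, n = 5 each), and of 0.95 ± 1.07 in CD 14 and 0.94 ± 0.82 in BD 14 (SD, n = 6 each). CD 14 rats 3 and 4 (2.72 and 1.77) and BD 14 rats 1 and 2 (1.92 and 1.91) were far above the other rats of their groups. The difference of CD 14 and CD 3 was 0.88 ± 0.52 (SE, adjusted p = 0.598 by limma) with the main probe and 0.95 ± 0.45 (SE, adjusted p = 0.478) with the other one, and the former was between 0.52 and 1.35 without 1 rat. Only the other probe had an unadjusted p under 0.05 by limma (10.1% of all probes). The probes went apart in CD 3 rat 4, at −1.29 and 0.29, and in CD 3 rat 2, at 1.98 and 0.69.

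Insig1 had the widest range of the 8, from −2.70 in CD 3 rat 4 to 6.26 in BD 14 rat 2. CD 14 rat 3 gave 5.10 and BD 14 rat 1 gave 3.87, whereas the group medians at 3 months were −0.41 (CD 3) and 0.64 (BD 3), and those at 14 months 0.63 (CD 14) and 1.86 (BD 14). Its difference of CD 14 and CD 3, 1.99 ± 1.18 (SE), was the largest of the 8 and lay within this spread (adjusted p = 0.594 by limma). It was between 1.25 and 2.82 without 1 rat, and 3.56 with the slide in the fit. The reference signal of its probe varied over the arrays with an SD of 0.63 on the log2 scale, against a median of 0.48 over the tested probes.

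Fdft1, squalene synthase, had the narrowest range. All its values lay between −0.29 and 0.57, and the largest of its 4 differences, BD 3 against CD 3, was −0.22 ± 0.19 (SE). With the slide in the fit this difference was −0.60, with an unadjusted p under 0.05 and an adjusted p of 0.414 by limma, and that of BD 14 and BD 3 was 0.53. Hmgcs1 also did not separate the groups, with means between −0.46 and −0.01 and its lowest value, −1.98, in CD 14 rat 3, a rat in which Insig1 and Fdps were high. On that array its processed reference signal, 60647, was the highest of all arrays. Its Cy5 signal there, 15360, lay within the CD 14 range of 14431 to 33112. The Hmgcs1 reference signal had an SD of 0.55 on the log2 scale, against a median of 0.48 over the tested probes. The part of the reference in this value was not tested. The 95% interval of the difference of CD 14 and CD 3 ran from −0.27 to 0.49 for Fdft1 and from −1.23 to 0.35 for Hmgcs1.

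**Figure D2:**
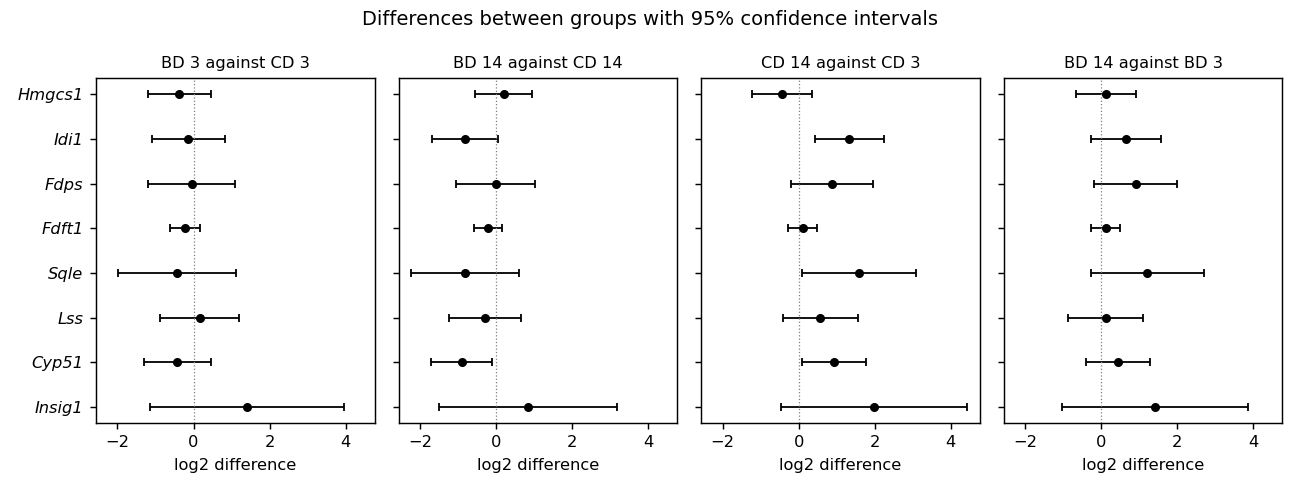
Differences of the group means on the log2 scale (horizontal axis) with 95% confidence intervals of limma, for the main probes of the 8 genes and 4 comparisons. The intervals exclude 0 for Idi1, Sqle and Cyp51 in CD 14 against CD 3 and for Cyp51 in BD 14 against CD 14, before adjustment for the number of probes.

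On the BASE-diet, all 8 genes had higher means at 14 than at 3 months, with a median difference of 0.55 against 0.07 over all probes. None of the 8 passed an adjusted p of 0.05 (0% of all probes) or an unadjusted p of 0.05 (7.44% of all probes). Insig1 (1.43 ± 1.18, SE), Sqle (1.21 ± 0.72) and Fdps (0.92 ± 0.52) had the largest differences by limma. Without 1 rat Insig1 went down to 0.62, Sqle to 0.61 and the median of the 8 to 0.30 (up to 0.76). No slide held rats of both groups, and with the slide in the fit 3 of the 8 genes had lower means in BD 14 (Hmgcs1 −0.19, Idi1 −0.14 and Lss −0.057), and Sqle differed by 0.27. All 3 red cell markers (median 0.75), all 3 bile duct markers tested (median 0.73) and all 5 Kupffer cell and macrophage markers (median 0.24) had higher means in BD 14 than in BD 3. The mean log2 ratio per array of the bile duct markers ran from −0.85 to −0.05 in BD 3 and from −0.86 to 1.59 in BD 14, and that of the red cell markers from −2.76 to −0.36 and from −1.86 to 0.38. Their part in the values of the 8 genes was not tested.

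The effect of the BASE-diet was asked within each time. After 14 months, 6 of the 8 genes had lower means in BD 14 than in CD 14 (Hmgcs1 and Insig1 were higher), with a median difference of −0.25 against 0.05 over all probes. Again 0 of the 8 and 0% of all probes passed an adjusted p of 0.05. One gene, Cyp51, had an unadjusted p under 0.05, and so did 4.6% of all probes. Its difference was −0.91 ± 0.39 (SE), 1.87-fold lower in BD 14, with an adjusted p of 0.952 by limma. Idi1 differed by −0.81 ± 0.42 (SE) and Sqle by −0.81 ± 0.68 (SE), each with an adjusted p of 0.952 by limma. Leaving out 1 rat at a time moved Sqle between −1.41 and −0.47, Idi1 between −1.19 and −0.57 and the median of the 8 between −0.47 and −0.12. With the slide in the fit, and without any 1 of 6 rats (CD 14 or BD 14), Cyp51 had no unadjusted p under 0.05. On slide C alone, which held all BD 14 rats and CD 14 rats 4 and 5, the differences were −0.71 for Cyp51, −1.18 for Idi1 and −1.36 for Sqle. Both CD 14 rats there overlapped with BD 14 in all 3 genes. Slide C was the only slide with BD 14 rats. All 3 leukocyte markers tested (median −0.33) and all 3 red cell markers (median −0.35) had lower means in BD 14, and all 3 bile duct markers tested had higher ones (median 0.29). Their part in the values of the 8 genes was not tested.

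After 3 months, 6 of the 8 genes had lower means in BD 3 than in CD 3 (Lss and Insig1 were higher). Insig1 differed most, by 1.40 ± 1.23 (SE, adjusted p = 0.872 by limma). Its difference was between 0.87 and 2.23 without 1 rat and 2.41 with the slide in the fit. The median difference was −0.18, against 0.03 over all probes, and 0 of the 8 had an adjusted p (0% of all probes) or an unadjusted p under 0.05 (7.11% of all probes). With the slide in the fit 1 of the 8, Fdft1, had an unadjusted p under 0.05, where 11% of all probes did. The median ran from −0.34 to −0.06 without 1 rat and changed its sign with the slide in the fit, to 0.52, and it was 0.68 on slide B, where 2 BD 3 rats met 1 CD 3 rat. CD 3 rat 1, that control, is an array of many non-uniform spots and had the lowest Idi1 and Cyp51 of its group. Leaving out both arrays rich in non-uniform spots, the median was −0.22. All 3 red cell markers tested also had lower means in BD 3, with a median of −0.67, and Hbb, a globin, differed by −1.19 ± 0.46 (SE, adjusted p = 0.586 by limma). Their mean log2 ratio per array ran from −2.76 to −0.36 in BD 3 and from −1.89 to −0.29 in CD 3, and all 5 markers of Kupffer cells and macrophages had higher means in BD 3 (median 0.67). The part of these cells in the values of the 8 genes was not tested.

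The interaction of diet and time passed for 0 of the 8 genes, with adjusted p of 0.999 for all of them by limma and with 0% of all probes, and an unadjusted p under 0.05 was met by 0 of the 8 and 4.8% of all probes. In limma's F test over the 4 groups, 0 of the 8 passed an adjusted p of 0.05, as 0.0257% of all probes did. Idi1 (adjusted p = 0.326), Cyp51 (adjusted p = 0.372) and Sqle (adjusted p = 0.469) had an unadjusted p under 0.05, which 10.5% of all probes had. BD 3 against CD 3 and CD 14 against CD 3 share the CD 3 rats, and the comparisons at 14 months share theirs.

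The rats within a group differed widely. The median of the 8 log2 ratios in a rat was 1.42 in CD 14 rat 3, 1.60 in CD 14 rat 4, 0.95 in BD 14 rat 1 and 2.02 in BD 14 rat 2. Each of the other 18 rats was at or below 0.60, and the lowest was CD 3 rat 1 at −0.74. The 4 high rats thus came from both diets, all of them after 14 months. They lay on slides A and C. CD 14 rat 3, CD 14 rat 1 and the lowest rats, CD 3 rat 1 and BD 3 rat 5 (−0.71), were the 4 arrays with 88.8% to 93.6% of spots well above background in Cy5, against 52.4% to 77% on the others, and the part of this in their values was not tested.

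**Figure D3:**
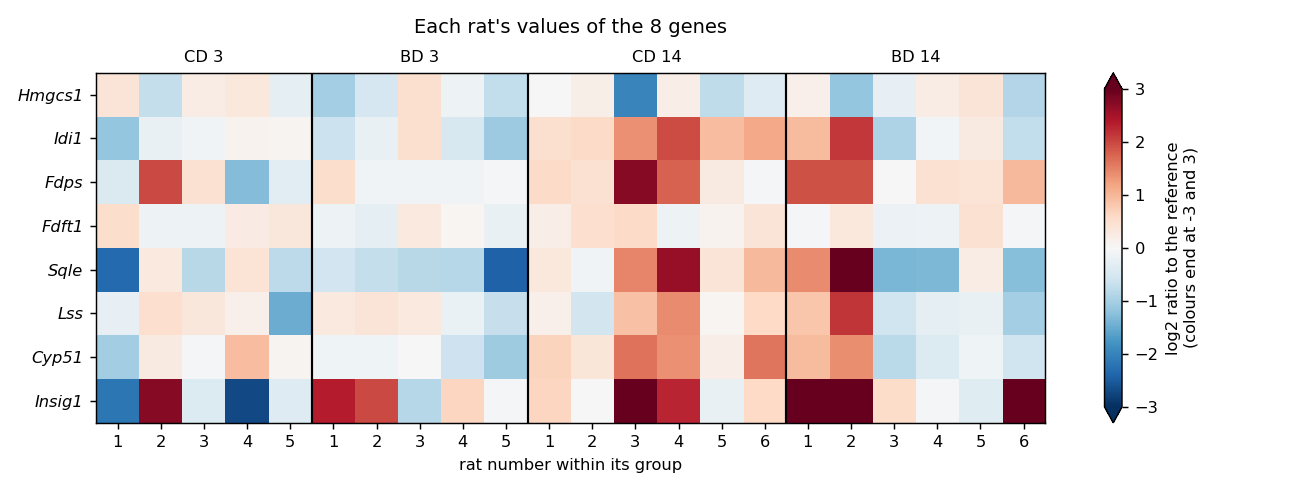
Log2 ratio to the reference (colour) of the 8 genes (rows) in each of the 22 rats (columns, by group and rat number). In CD 14 rats 3 and 4 and BD 14 rats 1 and 2, Idi1, Fdps, Sqle, Lss, Cyp51 and Insig1 all lie at 0.84 or above, while Fdft1 and Hmgcs1 do not.

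To measure how the genes moved together within groups, the group means were removed and each pair was correlated over the 22 arrays, with p-values from 100000 permutations of the arrays within groups and adjustment over the 28 pairs. By Pearson's r, 14 pairs had an adjusted p under 0.05, and by Spearman's rho 8. Of these, 2 by r and 1 by rho were negative, all with Hmgcs1. Sqle and Idi1 had r = 0.90 (adjusted permutation p = 9.33e-05) and rho = 0.85 (adjusted permutation p = 0.00028), and without the 2 arrays farthest from the median of Sqle r was 0.81. Sqle and Cyp51 had r = 0.90 (adjusted permutation p = 9.33e-05), rho = 0.89 (adjusted permutation p = 0.00028), and 0.90 without such arrays. Unadjusted, the permutation p of both was 1e-05, the smallest that the permutations can give. Fdps and Insig1 formed another close pair, with r = 0.87 (adjusted permutation p = 0.00028), rho = 0.82 (adjusted permutation p = 0.00035) and 0.83 without the 2 arrays farthest from the median of Fdps.

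Among the 21 pairs without Hmgcs1, 18 were positive, and the median r was 0.56. Over 16461 other genes the median r was 0.06 for Sqle, 0.05 for Fdps and 0.06 for Insig1, and 5.3%, 13.8% and 10.6% of these genes exceeded 0.5. That share lay between 2.85% (Hmgcs1) and 13.8% (Fdps) for the 8. Fdft1 was close to 0 with its fellow genes over the 22 arrays (mean r 0.0012, r from −0.18 to 0.18). On slide A (6 arrays) its r ran from 0.057 (Hmgcs1) to 0.90 (Idi1). Without the 4 high rats it ran from −0.55 (Insig1) to 0.61 (Hmgcs1). Hmgcs1 was negative with 6 of the other 7, down to r = −0.73 with Insig1 (adjusted permutation p = 0.00336, rho = −0.62 with an adjusted permutation p of 0.0163), and r was −0.54 without the 2 arrays farthest from the median of Hmgcs1. Without those 2 arrays Hmgcs1 was negative only with Insig1 and Fdps, and its median r with the other 7 went from −0.21 to 0.18. The part of the Hmgcs1 reference signal in these r was not tested. Within slides, the median r of the 21 pairs was 0.81 on slide C (8 arrays) and 0.71 on slide A (6 arrays). Fewer pairs passed when such far arrays or the high rats were left out. Without the 2 arrays farthest from the median of the first gene of a pair, 7 of the 28 pairs had an adjusted p under 0.05, and without the 4 high rats, a choice made after seeing the data, 5 did and the median r of the 21 pairs was 0.14. Sqle with Cyp51 (r = 0.85), Fdps with Insig1 (0.79), Cyp51 with Idi1 (0.74) and Sqle with Idi1 (0.72) had the highest positive r over the 18 arrays without them. Slides B, D and E held 3 arrays or fewer each, too few for a correlation.

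**Figure D4:**
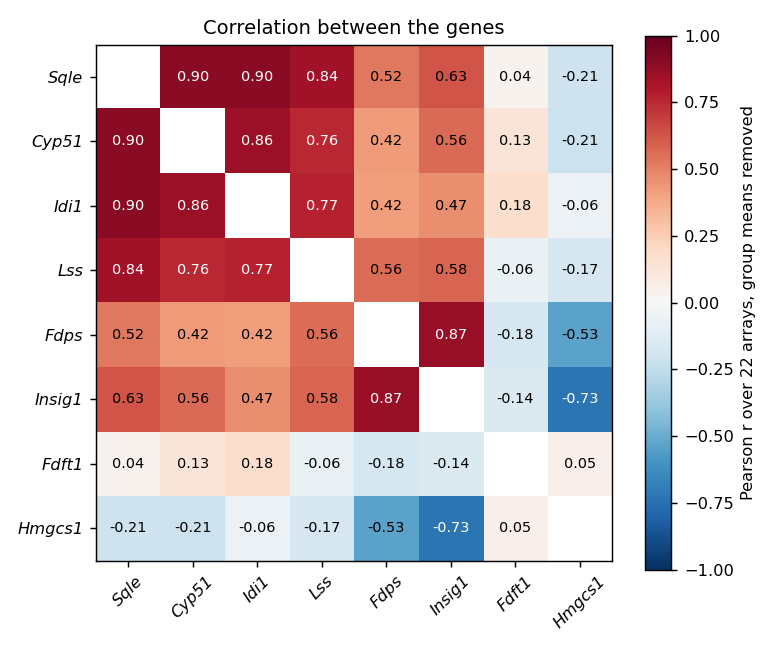
Pearson r (colour and number) for each pair of the 8 genes over 22 arrays after removing the group means. Sqle, Cyp51, Idi1 and Lss form a block of r between 0.76 and 0.90, Fdps and Insig1 a pair at 0.87, Fdft1 is near 0 and Hmgcs1 is mostly negative.

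The genes outside the 8 whose main probes were most like them, by the mean r with the 8 over 22 arrays with the group means removed, were led by Hsd17b7 (mean r 0.49), an enzyme of the later sterol steps, followed by Tmem184b (0.49) and Gpam (0.49), which starts glycerolipid synthesis. Msmo1, the enzyme that acts after Cyp51, was the fifth of 10 (0.48). Gpr108, Gnat1, Tubb2a and 3 probes without a gene name made up the rest. These values are a description, with r of single members from −0.57 to 0.86 for these 10.

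A list of 15 other enzymes held those of cholesterol synthesis together with Ggps1 and Dhdds, which belong to other branches of the mevalonate pathway. Of the 15, 14 were on the array and 13, with both of these, were tested. In CD 14 against CD 3, 10 of the 13 had higher means, 4 of them with an unadjusted p under 0.05 (10.1% of all probes), and 0 passed the adjustment. The median difference was 0.38 against 0.03 over all probes. Msmo1 differed by 0.80 ± 0.29 (SE), Nsdhl, which acts after it, by 0.74 ± 0.31 (SE), Mvd, the decarboxylase of the mevalonate pathway, by 0.84 ± 0.36 (SE), and Hsd17b7 by 0.72 ± 0.34 (SE), all by limma with adjusted p from 0.341 to 0.478. In BD 14 against CD 14 the list had 8 lower and 5 higher means, with a median of −0.05 (−0.21 with both arrays rich in non-uniform spots left out), and Ebp (−0.49 ± 0.18, SE), Tm7sf2 (−1.49 ± 0.58, SE) and Msmo1 (−0.65 ± 0.28, SE) were the 3 with an unadjusted p under 0.05 (4.6% of all probes). In BD 3 against CD 3, 8 had higher means and 0 had such a p (7.11% of all probes), with a median of 0.071. With both arrays rich in non-uniform spots left out the median was −0.18, and 1 gene was lower at such a p (11.8% of all probes). In BD 14 against BD 3, 7 had higher means, and Msmo1 (0.66 ± 0.29, SE) and Nsdhl (0.64 ± 0.31, SE) had it (7.44% of all probes).

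The uptake and sterol sensing genes were 15, of which 13 were tested. CD 14 exceeded CD 3 in the means of 9 of them, 1 with an unadjusted p under 0.05 (10.1% of all probes, so no more than the background) and 0 after adjustment. The median difference was 0.20, and 0.064 with both arrays rich in non-uniform spots left out. The 1 gene was Npc2, the lysosomal cholesterol carrier (0.75 ± 0.33, SE, adjusted p = 0.446 by limma). Srebf2, which encodes SREBP-2, differed by 0.27 ± 0.23 (SE) and Srebf1 by 0.63 ± 0.48 (SE) in CD 14 against CD 3. In BD 14 against CD 14 and in BD 3 against CD 3, 0 of the 13 had an unadjusted p under 0.05, against 4.6% and 7.11% of all probes.

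Of the storage and efflux genes, 10 were tested, of which 3 had higher means in CD 14 than in CD 3, with a median difference of −0.09. An unadjusted p under 0.05 was met by 2 of the 10, against 10.1% of all probes. Abcg1, a sterol exporter of macrophages and other cells, differed by 1.58 ± 0.40 (SE, adjusted p = 0.178 by limma), and Abcg5, which exports sterols into bile, differed by −1.54 ± 0.54 (SE, adjusted p = 0.324). The probe of Soat1, which esterifies cholesterol, was well above background on 10 of the 22 arrays, and no difference is given for it. It passed the filter and is part of the counts and the median of this list. Lipogenesis genes, which SREBP-1c drives, were 11 tested of 12. All 11 had higher means in BD 14 than in BD 3, 5 with an unadjusted p under 0.05 (7.44% of all probes) and 0 after adjustment, with a median of 0.90 against 0.07 over all probes, of which 58.6% had higher means. The 5 were Fasn, fatty acid synthase (1.46 ± 0.66, SE), Acly (1.25 ± 0.60, SE), Elovl6 (2.25 ± 0.96, SE), Thrsp (0.74 ± 0.32, SE) and Pklr (0.65 ± 0.31, SE) by limma, while Scd1 (1.99 ± 1.13, SE) and Acaca (0.99 ± 0.63, SE) had no such p. In CD 14 against CD 3, 9 of the 11 had higher means, 1 of them, Scd1 (2.49 ± 1.13, SE), with an unadjusted p under 0.05, against 10.1% of all probes. In BD 3 against CD 3, 8 had lower means, and Pklr (−1.14 ± 0.32, SE, adjusted p = 0.400 by limma) was the 1 with such a p, against 7.11% of all probes.

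Markers of Kupffer cells and macrophages also differed between CD 14 and CD 3. All 5 had higher means in CD 14, with a median difference of 1.14, 0 passed the adjustment, and 3 had an unadjusted p under 0.05 (10.1% of all probes), namely Cd68 (1.19 ± 0.41, SE), Cd163 (1.14 ± 0.42, SE) and Clec4f (1.34 ± 0.43, SE) by limma. Their mean log2 ratio per array ran from −2.96 to −0.75 in CD 3 and from −1.47 to −0.27 in CD 14, and 4 of the 5 cleared the background on each of the 22 arrays. Of the 3 leukocyte markers tested, Ptprc differed by 1.34 ± 0.57 (SE), Lck by 0.09 ± 0.41 (SE) and Cd79b by −0.08 ± 0.42 (SE), a median of 0.09 that was 0.51 with both arrays rich in non-uniform spots left out. All 3 red cell markers (median 0.35) and 5 of the 6 hepatocyte markers (median 0.22) had higher means in CD 14, as had 2 of 3 bile duct and 3 of 5 stellate cell markers. In these 4 lists 0 markers had an unadjusted p under 0.05 (10.1% of all probes). Of 11 clock genes, 7 had higher and 4 lower means, and 2 had an unadjusted p under 0.05, with Cry1 at −1.22 ± 0.55 (SE) and Nr1d1 at 0.70 ± 0.32 (SE). In BD 14 against BD 3, 3 of them had such a p (7.44% of all probes), Cry1 (−1.31 ± 0.55, SE), Nr1d1 (0.87 ± 0.32, SE) and Nr1d2 (1.28 ± 0.40, SE). Over the arrays, with group means removed, the 11 clock genes had r from −0.76 (Tef) to 0.64 (Per1) with Sqle, and 2 of them (Per1 and Cry1) exceeded 0.5, against 5.3% of all genes. The part of these cells, and of the hour at which a liver was taken, in the values of the 8 genes was not tested.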

How the data were processed

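Liver RNA of 22 rats was hybridised with a common reference to Agilent SurePrint G3 rat arrays. Per the labels Cy5 is the rat and Cy3 the reference on every array; the methods name the dyes otherwise, and the labels were followed. The authors deposited Feature Extraction output (version 10.7.3.1 per the labels, 10.10.1.1 per the file headers) for every spot. Its deposited intensity values include raw mean and background signals and processed signals, background-subtracted and Lowess dye-normalised, and its deposited log10 values give processed Cy5 over processed Cy3. Probes are annotated to rn4. The authors' table of selected entries held none of the member probes and was not used here.

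Log10 ratios were turned to log2. Spots that were controls or non-uniform were dropped, replicate spots were averaged, and arrays were not scaled to each other. Testing needed a Cy5 signal well above background in a share of 0.5 or more of the spots, on all arrays of some group (19434 probes). The number of arrays and the spread between rats limit the precision. limma 3.58.1 (R 4.3.3) fitted the 4 groups; p-values were Benjamini-Hochberg adjusted over all tested probes, with a threshold of 0.05, and tests are two-sided. Of several probes of a gene, the brightest in Cy5 is its main probe. In the labels only the rat number links rats of different groups, while slides A, B, C and E each held arrays of 2 groups. Correlations used 100000 permutations within groups. All 8 genes are named, as are Srebf2, Srebf1, Fasn, Scd1, Acaca and Acly, up to 4 genes of a list with the smallest unadjusted p in a comparison, and the 10 genes most like the members; markers with an unadjusted p under 0.05 and clock genes were named after their values were seen. Genes of the lists that are not reported here were left out of their counts. The members and the lists were chosen with earlier results of these data known. The fit was tested on simulated data with 200 changed probes. Alternatives tried were normexp (offset 50) with loess, Cy5 alone, median-centred arrays, 2 other detection filters, non-uniform spots kept, array weights, the slide or the rat number as a block, only the groups compared, Tukey's HSD after the F test of the methods, single slides and leaving out each array, and, chosen after seeing the data, leaving out the 2 arrays of many non-uniform spots or the rats with the highest values. Promoter sequences are RefSeq's (GRCr8). Python 3.11.15 and matplotlib 3.10.9 drew the figures.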

Additional observations from a re-analysis of the deposited data

Results flagged for a closer look

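In 3 of 32 sets of values (8 genes in 4 groups), 1 rat stood far from the others of its group, where chance flags about 1 in 20 such sets. BD 3 rat 5 had a Sqle log2 ratio of −2.42, CD 3 rat 1 had an Idi1 log2 ratio of −1.16, and BD 3 rat 1 had an Fdps log2 ratio of 0.52.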

How the results depend on the processing

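No member passed an adjusted p of 0.05 in any comparison under any setting run. By Tukey's HSD, which adjusts over the pairs of groups and not over probes, Idi1 in CD 14 against CD 3 was the 1 member under 0.05, and its F test had an adjusted p of 0.373 over all probes. The number of members with an unadjusted p under 0.05 went from 1 to 5 in CD 14 against CD 3 (3 in the main analysis) and from 0 to 3 in BD 14 against CD 14 (1 in the main analysis). The shares of all probes went from 6.01% to 14.2% and from 2.87% to 10.8% over these settings. In BD 3 against CD 3 it was 1 with the slide block (Fdft1) and otherwise 0, and in BD 14 against BD 3 it was 1 with Cy5 alone (Idi1) and with only the groups compared (Fdps), where 12.5% and 14.6% of all probes had it, and otherwise 0. Of all probes, 205 passed the adjustment in CD 14 against CD 3 without CD 3 rat 5 and 93 in BD 3 against CD 3, and with Cy5 alone 10 and 221. In BD 14 against BD 3, 99 probes passed with array weights, 22 with only the groups compared and 6 with Cy5 alone. In BD 14 against CD 14, 4 passed with array weights. The number of members with an unadjusted p under 0.05 was 1 in CD 14 against CD 3 without CD 3 rat 1 or 3, without CD 14 rat 3, 4 or 6, with array weights, and with both arrays rich in non-uniform spots left out (chosen after seeing the data, with 2 in BD 14 against CD 14), and 5 with Cy5 alone and without CD 3 rat 2. It was 0 in BD 14 against CD 14 without CD 14 rat 3, 4 or 6, without BD 14 rat 3, 4 or 6, and with Cy5 alone or the slide block. With the rat number as a replicate block, 0 members passed the adjustment in each comparison, and 2 had an unadjusted p under 0.05 in CD 14 against CD 3 (9.29% of all probes). Of 21 same-numbered pairs 6 correlated over 0.1, up to 0.29. Pairs of different numbers were not compared, so this count cannot show whether the numbers pair rats. The authors' deposited values could give no value here.

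The median over members in BD 3 against CD 3 became 0.52 with the slide block and 0.68 within slide B. Signs turned with the slide block for Sqle (1.02), Cyp51 (0.62), Idi1 (0.42) and Fdps (0.021) in BD 3 against CD 3, Fdft1 in BD 14 against CD 14 (0.085, also within slide C) and CD 14 against CD 3 (−0.16), and Hmgcs1 (−0.19), Idi1 (−0.14) and Lss (−0.0568) in BD 14 against BD 3. Within slide B they turned for Sqle (1.69), Cyp51 (0.92), Idi1 (0.72) and Fdps (0.63). With Cy5 alone Fdps turned in BD 3 against CD 3 (0.45) and Fdft1 in BD 14 against CD 14 (0.14), with normexp and loess Idi1 in the former (0.00811) and Fdps in the latter (0.011), and with array weights Lss in BD 14 against BD 3 (−0.12). The causes were not tested. Leaving out 1 rat gave ranges across 0 in BD 3 against CD 3 for Idi1 (−0.36 to 0.041), Fdps (−0.39 to 0.43) and Lss (−0.17 to 0.34), in BD 14 against CD 14 for Hmgcs1 (−0.10 to 0.39) and Fdps (−0.21 to 0.34), and in BD 14 against BD 3 for Hmgcs1 (−0.026 to 0.35) and Lss (−0.28 to 0.36). Of the 28 pairs, 14 had an adjusted p under 0.05, 7 without the 2 farthest arrays and 5 without the 4 high rats.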
